A study of Mus musculus with 9 samples.

Results

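The 44 genes described here encode the matrix metalloproteinases (MMPs), their tissue inhibitors (TIMPs) and the ADAMTS proteases. They were chosen by gene symbol alone, and they are 21 Mmp, 4 Timp and 19 Adamts genes among the 19517 genes of the authors' deposited table. RNA-seq was done on ovarian tissue of female nude mice of the BALB/c strain, all of which carried xenografts of MDA-MB-231, an established human breast cancer cell line. The CTX group received cyclophosphamide, an alkylating chemotherapy drug, the CAU group received caulerpin, an indole alkaloid of green algae, and the UT group had no treatment, with 3 samples each. The labels give no age, dose or time, and for the CAU group they name caulerpin alone, so whether those mice also had cyclophosphamide is not known here. Nude mice have no functional thymus and are short of T cells, while macrophages, neutrophils, B cells and NK cells are present.

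MMPs are zinc-dependent proteases that are made as inactive precursors and cleave collagens, elastin, proteoglycans and cell surface proteins. TIMPs bind the active site of MMPs and block it. Pro-MMP2 is activated at the cell surface by membrane-type MMPs, and TIMP2 acts there both as an inhibitor and as the bridge that holds pro-MMP2 to MMP14. ADAMTS proteases are secreted relatives that cleave proteoglycans such as versican, trim procollagens or act on microfibrils. In the ovary these enzymes take part in follicle growth, in the opening of the follicle wall at ovulation and in the regression of the corpus luteum.

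For each pair of groups, the authors' deposited table lists DESeq2 output for nearly all genes, namely a log2 fold change with its raw and adjusted p. It holds no value per sample and no expression level, so the spread of single ovaries, the order of the members by level and the sequencing depth are unknown here, and the presence of ovarian markers could be checked only as fold changes. Beside each log2 fold change stands a standard error (SE) worked out from its p-value (the implied SE) and, where useful, the 95% interval from that SE. Columns named for a pair of groups were taken to mean the second group over the first. The headers leave this unsaid, and if it is the other way round all directions below are turned. With that choice, the p53 target Cdkn1a, which DNA damage induces, was at 1.99 (SE 0.32) in CTX against UT in the authors' deposited table. The labels do not say that the 3 samples of a group came from separate mice, so the p-values measure only the spread among these libraries, and part of it may be technical. A gene is called changed where the deposited adjusted p is under 0.05. In bulk tissue, fewer cells of a type and less RNA per cell cannot be told apart.

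Across the 44 genes, 1 passed the threshold in 1 of the 3 comparisons. In CTX against UT, Mmp16 rose, which is 1 of 43 members tested (2.33%), beside 1.29% of 19260 genes called in either direction, 0.472% higher and 0.82% lower. At an unadjusted p under 0.05 there were 3 members (6.98%), beside 10.2% of all genes. In CAU against CTX, 0 of 44 members passed by the DESeq2 adjusted p, beside 0.442% of 19245 genes (0.312% higher and 0.13% lower), and 1 member, Mmp2, had an unadjusted p under 0.05 (2.27%, beside 5.36% of all genes). In CAU against UT, 0 of 44 passed by the DESeq2 adjusted p, beside 0.0518% of 19302 genes (0.0311% higher and 0.0207% lower), and 2 members, Timp2 and Mmp9, had an unadjusted p under 0.05 (4.55%, beside 3.46% of all genes). These shares lie near or below those of all genes, apart from the called share in CTX against UT, which rests on 1 gene.

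The intervals set a bound for the larger share of these genes. In CTX against UT, 26 of 43 members (60.5%) had a 95% interval that stayed within a 2-fold difference in either direction, beside 61.8% of all genes, and 16 (37.2%, beside 48.2% of all genes) stayed within 1.5-fold. The same held within 2-fold for 29 of 44 members in CAU against CTX (65.9%, beside 65.6% of all genes) and for 24 of 44 in CAU against UT (54.5%, beside 62.0%). Within 1.5-fold these shares were 43.2%, beside 54.1% of all genes, in CAU against CTX and 31.8%, beside 46.3%, in CAU against UT. For 24 members the interval stayed within 2-fold in all 3 comparisons, a count that was not made over all genes. The median log2 fold change over the members was -0.07 in CTX against UT (all genes -0.03), -0.02 in CAU against CTX (all genes 0.00) and -0.08 in CAU against UT (all genes -0.01). There were 14 members higher and 29 lower in CTX against UT (67.4% lower, beside 55.8% of all genes), and 16 higher and 27 lower after centring on the median of all genes. In CAU against CTX 20 were higher and 24 lower (54.5% lower, beside 47.7%), and in CAU against UT 17 were higher and 27 lower (61.4% lower, beside 52.2%). These 3 comparisons share their groups pairwise, so their values are not independent of each other.

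**Figure D1:**
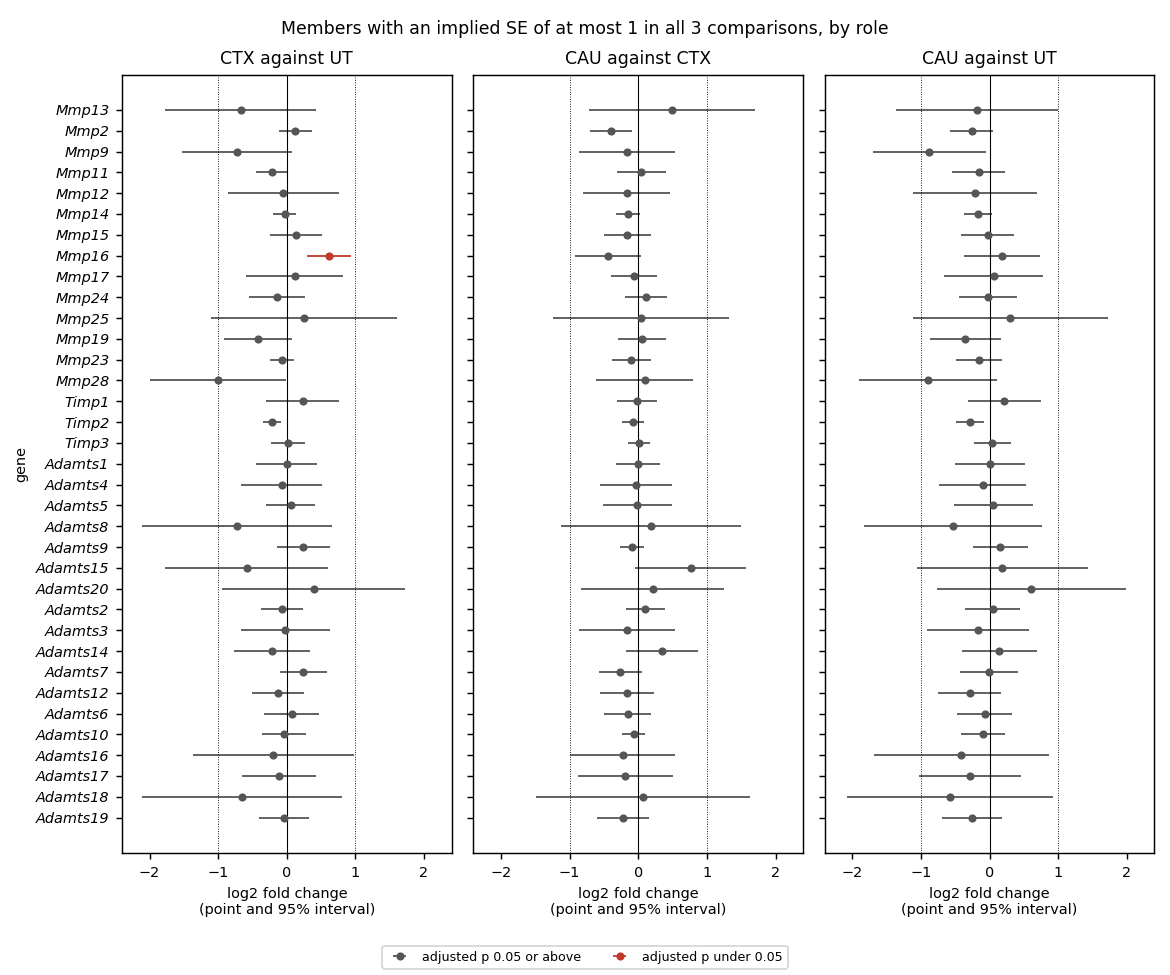
Log2 fold changes (points) with 95% intervals (bars) of the 35 members whose implied SE was at most 1 in all 3 comparisons, ordered by role, with dotted lines at a 2-fold difference. Only Mmp16 in CTX against UT, at 0.61, is past the threshold, and most intervals include 0.

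Mmp16 encodes MT3-MMP, a transmembrane MMP that can activate pro-MMP2. It lies on chromosome 4 at chr4:17853072-18117479 (GRCm38.p6). The authors' deposited table gives it a log2 fold change of 0.61 in CTX against UT (SE 0.16, adjusted p = 0.0218), a 1.53-fold higher level with an interval of 1.22 to 1.92-fold. Mmp16 in CAU against CTX was at -0.44 (SE 0.25, unadjusted p = 0.0757) in the authors' deposited table, which did not pass. Between CAU and UT the Mmp16 value of the authors' deposited table was 0.18 (SE 0.28), with an interval from -0.37 to 0.74 that includes both 0 and the CTX value. So Mmp16 was higher in CTX than in UT, while the CAU group was not separated from either by these values.

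The other membrane-type genes were nearer to 0 in CTX against UT. Mmp14, which encodes MT1-MMP, a collagen-cleaving enzyme and the main activator of pro-MMP2, was at -0.03 (SE 0.08) in CTX against UT, -0.15 (SE 0.09) in CAU against CTX and -0.17 (SE 0.10) in CAU against UT in the authors' deposited table. Its intervals in these comparisons reached no further than 0.77-fold and 1.09-fold, so a rise of the size seen for Mmp16 lies outside them. For Mmp15, the gene of MT2-MMP, the authors' deposited table has 0.13 (SE 0.19), -0.16 (SE 0.17) and -0.02 (SE 0.20) in the same order. Mmp24, the MT5-MMP gene, was at -0.14 (SE 0.21), 0.11 (SE 0.15) and -0.02 (SE 0.21) in that order in the authors' deposited table. Mmp17 and Mmp25 encode the members held in the membrane by a lipid anchor. The authors' deposited table has Mmp17 at 0.11 (SE 0.36) and Mmp25 at 0.25 (SE 0.69) in CTX against UT, and neither passed in any comparison.

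Mmp2 encodes gelatinase A, which cleaves denatured collagen and basement membrane collagen. Its lowest value was in CAU against CTX, at -0.40 (SE 0.16, unadjusted p = 0.0123, adjusted p = 0.557 by DESeq2) in the authors' deposited table, which did not pass. The authors' deposited table also has it at 0.13 (SE 0.12) in CTX against UT and at -0.26 (SE 0.16) in CAU against UT. Mmp9 encodes gelatinase B, which is made by neutrophils and macrophages among other cells. The authors' deposited table gives Mmp9 -0.72 (SE 0.41, unadjusted p = 0.0775) in CTX against UT, -0.16 (SE 0.36) in CAU against CTX and -0.88 (SE 0.42, unadjusted p = 0.0363, adjusted p = 1 by DESeq2) in CAU against UT. Both non-UT groups were thus on the low side of UT for Mmp9, and neither difference passed.

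Timp2 had the smallest SE of all members in CTX against UT and lay closest to the threshold after Mmp16. The authors' deposited table gives Timp2 -0.21 in CTX against UT (SE 0.06, adjusted p = 0.0591), a level 13.8% lower with an interval of 0.79 to 0.94-fold. In CAU against UT it was at -0.28 (SE 0.10, unadjusted p = 0.00649, adjusted p = 0.885) and in CAU against CTX at -0.08 (SE 0.08) in the authors' deposited table. Neither difference from UT passed, and their call depended on the setting. When genes with an SE above 1 were left out, Timp2 in CTX against UT had an adjusted p of 0.0491, with a range of 0.0491 to 0.121 over the alternatives. In CAU against UT its adjusted p was 0.018 once the z values were scaled to a spread of 1, with a range of 0.018 to 0.952. That scaling divided every z by 0.712 and raised the calls among all genes from 10 to 251. The gene lies at chr11:118301061-118355411 (GRCm38.p6).

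Timp3 encodes the inhibitor that binds to the matrix and also blocks ADAM and ADAMTS proteases. It was at 0.02 (SE 0.12), 0.01 (SE 0.08) and 0.04 (SE 0.14) in CTX against UT, CAU against CTX and CAU against UT in the authors' deposited table, with all 3 intervals between 0.85-fold and 1.24-fold. Timp1, a soluble inhibitor induced by many cytokines, was at 0.23 (SE 0.27), -0.02 (SE 0.15) and 0.22 (SE 0.27) in that order in the authors' deposited table. Timp4 was imprecise, at -0.76 (SE 1.36), 0.48 (SE 1.31) and -0.27 (SE 1.32) in that order in the authors' deposited table. In GENCODE M21, 21.3% of the exon bases of Timp3 overlap exons of Syn3 on the opposite strand and 1.53% of those of Timp4 overlap Syn2. Whether the counting used strand is not given in the sources used here, so reads in such stretches may belong to either gene. In all, 11 of the 44 members share exon bases with another protein-coding gene.

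Mmp28, Mmp19, Mmp11 and Mmp23 are secreted or membrane MMPs outside these groups and outside the chromosome 9 gene cluster. Mmp28 encodes epilysin, an MMP of epithelia and macrophages. The authors' deposited table has Mmp28 at -1.002 (SE 0.51, unadjusted p = 0.0487, adjusted p = 0.488 by DESeq2) in CTX against UT, 0.09 (SE 0.36) in CAU against CTX and -0.90 (SE 0.51) in CAU against UT. Mmp19 was at -0.42 (SE 0.25), 0.06 (SE 0.18) and -0.35 (SE 0.27) in that order in the authors' deposited table. Of the exon bases of Mmp19, 22.3% overlap Tmem198b on the opposite strand, and of those of Mmp28, 12.0% overlap 1700020L24Rik. Mmp11, which encodes stromelysin 3, an MMP activated inside the cell by furin, was at -0.21 (SE 0.12) in CTX against UT in the authors' deposited table. For Mmp23, which encodes a membrane-bound MMP of reproductive tissues, the authors' deposited table has -0.07 (SE 0.09), -0.10 (SE 0.15) and -0.16 (SE 0.17) in the same order, with intervals from 0.71-fold to 1.14-fold. None of these values passed.

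**Figure D2:**
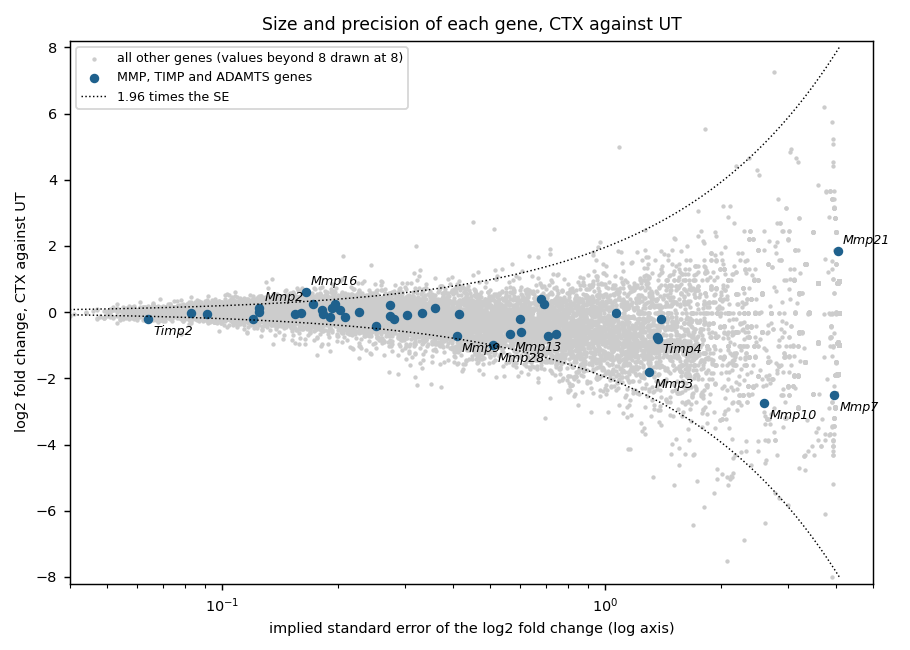
Log2 fold change of each gene in CTX against UT on the vertical axis against its implied SE on a log horizontal axis, with the MMP, TIMP and ADAMTS genes in blue and dotted curves at the limits beyond which a 95% interval leaves out 0. Mmp16 lies above the upper curve, Timp2 and, by a small margin, Mmp28 lie below the lower one, and Mmp3, Mmp10, Mmp7 and Mmp21, with SEs of 1.30 to 4.04, lie between them.

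A group of 8 members shares a position that the choice by symbol did not use. Mmp13, Mmp12, Mmp1b, Mmp3, Mmp10, Mmp8, Mmp27 and Mmp7 lie within 427.1 kb of chromosome 9, at chr9:7272514-7699585 (GRCm38.p6). RefSeq places 10 protein-coding genes in that interval, and the remaining ones are Mmp1a and Mmp20, which have no entry in the authors' deposited table. The cluster holds the collagenases and stromelysins other than Mmp11, with matrilysin and metalloelastase. Most of these are secreted proteases that inflammatory signals induce.

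Of the 8 clustered genes, 6 also share a short sequence match just before their transcript starts. The RefSeq promoter table (GRCm38.p6) had entries for 30 of the 44 members, 33 promoters in all, and the 250 bases before each start were searched. An AP-1 site, the binding sequence of Fos and Jun dimers, was searched as TGANTCA, which reads the same on both strands. It was found in 6 of those 33 promoters, and all 6 belong to the chromosome 9 cluster, while 6.75% of all 32851 promoters hold it. The promoters of Mmp8 and Mmp27 were searched too and held neither this site nor a TATA box. A TATA box, searched as TATAAA on both strands, stood in 7 member promoters and in 12.4% of all promoters. A GC box, searched as GGGCGG on both strands, stood in 16 member promoters, among them Mmp14 and Timp2, and in 32.7% of all promoters. The stretches before the 6 starts are shown because each holds an AP-1 site, all but that of Mmp12 with a TATA box after it at varying distances. They run 5′ to 3′ on the gene's strand, with AP-1 sites and TATA boxes in capitals. For Mmp1b the last 21 bases before the start are left out, since GENCODE places an exon there.
Mmp13 (chr9:7272404-7272513, + strand): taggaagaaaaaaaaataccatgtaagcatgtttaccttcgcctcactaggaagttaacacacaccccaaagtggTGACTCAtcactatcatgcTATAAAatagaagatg
Mmp12 (chr9:7347264-7347373, + strand): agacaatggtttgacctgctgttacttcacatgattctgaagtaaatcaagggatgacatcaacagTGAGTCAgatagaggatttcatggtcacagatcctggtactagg
Mmp1b (chr9:7388048-7388136, - strand): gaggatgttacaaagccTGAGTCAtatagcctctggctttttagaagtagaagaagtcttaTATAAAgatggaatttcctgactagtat
Mmp3 (chr9:7445712-7445821, + strand): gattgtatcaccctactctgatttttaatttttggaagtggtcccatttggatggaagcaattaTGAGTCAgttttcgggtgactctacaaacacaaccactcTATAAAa
Mmp10 (chr9:7502232-7502341, + strand): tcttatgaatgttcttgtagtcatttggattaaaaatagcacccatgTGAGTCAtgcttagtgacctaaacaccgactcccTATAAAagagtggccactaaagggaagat
Mmp7 (chr9:7691980-7692089, + strand): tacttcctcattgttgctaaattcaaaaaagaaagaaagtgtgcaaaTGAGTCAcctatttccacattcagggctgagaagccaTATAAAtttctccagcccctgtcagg

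The AP-1 site of Mmp13 is TGACTCA and that of the other 5 genes is TGAGTCA. With the last base before the RefSeq start counted as -1, the site begins at position -35 in Mmp13, -44 in Mmp12, -46 in Mmp3, -63 in Mmp10 and in Mmp7, and -93 in Mmp1b. A TATA box follows the AP-1 site in 5 of the 6 genes, and the first bases of the site and the box are 19 apart in Mmp13, 34 in Mmp10, 37 in Mmp7, 39 in Mmp3 and 44 in Mmp1b. These matches describe letters in a window and do not show that a factor binds there.

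**Figure D3:**
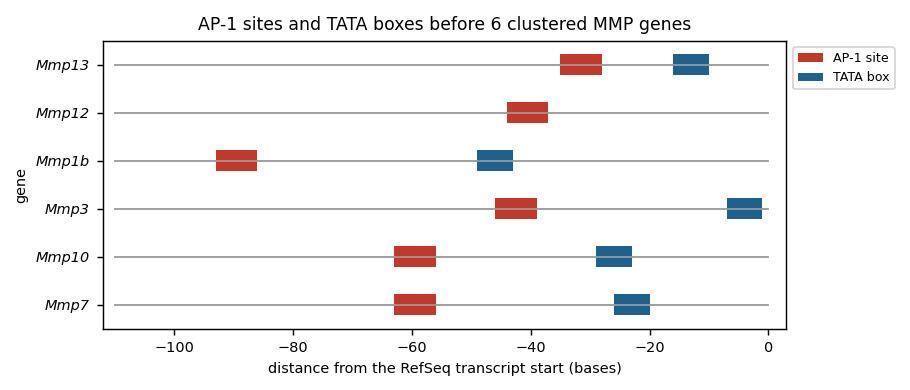
Positions of AP-1 sites (red) and TATA boxes (blue) in the 110 bases before the RefSeq transcript start of 6 MMP genes of the chromosome 9 cluster, with the distance from the start in bases on the horizontal axis. Each gene has an AP-1 site that begins between positions -93 and -35, and Mmp12 has no TATA box in this window.

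All 7 clustered genes with a value were lower in CTX against UT, beside 55.8% of all genes. After centring on the median of all genes 6 were lower and Mmp27 higher. The values were imprecise. Their median log2 fold change was -0.81 and their median SE 1.30, while for the other 36 members these were -0.06 and 0.24. The smallest unadjusted p among them was 0.168 and the smallest adjusted p was 0.775 by DESeq2. In CAU against CTX 5 of 8 were higher and 3 lower (median 0.62), beside 47.7% of all genes lower. In CAU against UT 3 were higher and 5 lower (median -0.11), beside 52.2% of all genes lower.

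The largest values in the cluster had wide intervals, all of which included 0. Mmp10, which encodes stromelysin 2, was at -2.75 (SE 2.60) in CTX against UT, 2.81 (SE 1.68, unadjusted p = 0.0947) in CAU against CTX and 0.07 (SE 2.17) in CAU against UT in the authors' deposited table. Mmp3, the gene of stromelysin 1, was at -1.80 (SE 1.30), -0.22 (SE 1.67) and -2.01 (SE 1.22) in that order in the authors' deposited table. Mmp7 encodes matrilysin, a small MMP of glandular epithelia. The authors' deposited table has it at -2.49 (SE 3.95), 3.07 (SE 2.73) and 0.59 (SE 2.87) in the same order. Mmp8, the neutrophil collagenase gene, was at -0.81 (SE 1.38), 0.76 (SE 1.12) and -0.04 (SE 1.37) in that order in the authors' deposited table.

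Only Mmp12 and Mmp13 in the cluster had an SE of at most 1. Mmp12 encodes macrophage metalloelastase, and it was at -0.05 (SE 0.41) in CTX against UT, -0.17 (SE 0.32) in CAU against CTX and -0.21 (SE 0.46) in CAU against UT in the authors' deposited table. Its interval in CTX against UT runs from 0.55-fold to 1.69-fold. Mmp13, which encodes collagenase 3, was at -0.67 (SE 0.56), 0.49 (SE 0.62) and -0.18 (SE 0.60) in that order in the authors' deposited table. Mmp1b, a mouse relative of human MMP1, is blank in CTX against UT and had an SE of 4.04 in both other comparisons, so nothing can be read from it. Of its exon bases 10.8% overlap Mmp12 on the opposite strand. Its near copy Mmp1a adds a further limit, since reads could be split between such genes.

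**Figure D4:**
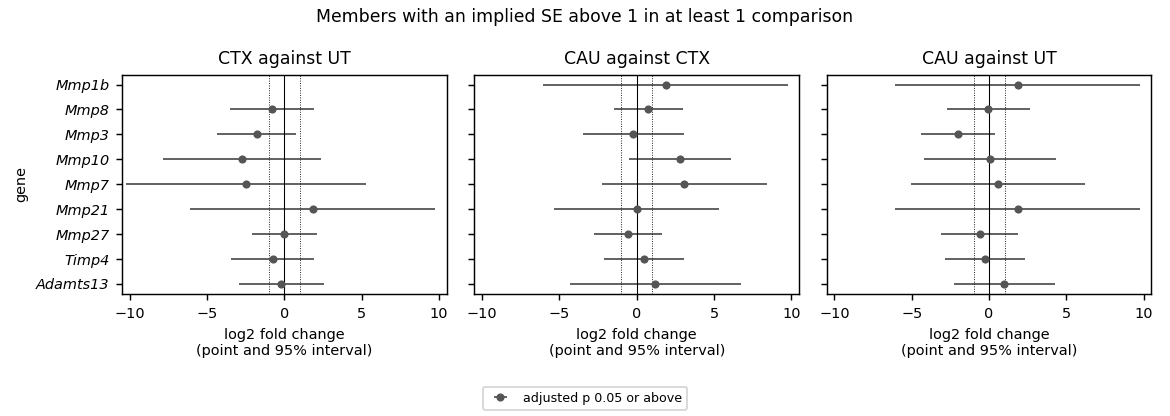
Log2 fold changes (points) with 95% intervals (bars) of the 9 members whose implied SE exceeded 1, or was blank, in at least 1 comparison, with dotted lines at a 2-fold difference. Every interval includes 0, and that of Mmp1b in CAU against CTX runs from -6.05 to 9.78.

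The ADAMTS genes gave no called difference in any comparison by DESeq2, with 0 of 19 past the threshold and a smallest adjusted p of 0.773 in CTX against UT. Adamts1 cleaves versican and, in the mouse ovary, is induced through the progesterone receptor at ovulation. The authors' deposited table places Adamts1 at 0.0010 (SE 0.23), -0.0026 (SE 0.16) and 0.0053 (SE 0.26) in CTX against UT, CAU against CTX and CAU against UT, with intervals of 0.74 to 1.36-fold, 0.80 to 1.24-fold and 0.70 to 1.43-fold. For the aggrecanase Adamts5 the authors' deposited table has 0.06 (SE 0.18) in CTX against UT, and for Adamts9, which cleaves versican, 0.24 (SE 0.20). The widest differences among proteoglycanases were in imprecise genes. Adamts15 was at -0.59 (SE 0.60) in CTX against UT and 0.76 (SE 0.41, unadjusted p = 0.0652) in CAU against CTX in the authors' deposited table. Adamts8 was at -0.73 (SE 0.71) and Adamts20 at 0.39 (SE 0.68) in CTX against UT in the authors' deposited table.

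Adamts2, Adamts3 and Adamts14 remove the N-terminal propeptides of procollagens. The authors' deposited table has them at -0.07 (SE 0.16), -0.02 (SE 0.33) and -0.22 (SE 0.28) in CTX against UT, and after centring on the median of all genes the value of Adamts3 became 0.0045. The highest of their values was 0.35 (SE 0.27), for Adamts14 in CAU against CTX in the authors' deposited table. Adamts7 and Adamts12, which cleave cartilage oligomeric matrix protein, were at 0.24 (SE 0.17) and -0.13 (SE 0.19) in CTX against UT in the authors' deposited table. Both were negative in the authors' deposited table in CAU against CTX, Adamts7 at -0.26 (SE 0.16) and Adamts12 at -0.17 (SE 0.20). Adamts13, the protease of von Willebrand factor, is made mainly in the liver and had SEs of 1.40 to 2.82 here.

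The other 6 ADAMTS genes include Adamts6 and Adamts10, which act on fibrillin microfibrils. All 6 were negative in CAU against UT, from -0.58 to -0.07, beside 52.2% of all genes lower, and none passed by DESeq2. In CAU against UT, Adamts10 was at -0.10 (SE 0.16), Adamts6 at -0.07 (SE 0.20), Adamts19 at -0.26 (SE 0.22) and Adamts18 at -0.58 (SE 0.77) in the authors' deposited table. For Adamts16 the authors' deposited table has -0.41 (SE 0.65) and for Adamts17 -0.29 (SE 0.38) in the same comparison. In CTX against UT and in CAU against CTX 5 of the 6 were negative, beside 55.8% and 47.7% of all genes. These comparisons share groups, so the counts are not independent. The aggrecanase gene Adamts4 and the MMP genes Mmp21 and Mmp27 complete the set. None of the 3 passed in any comparison. In CTX against UT the authors' deposited table has Adamts4 at -0.08 (SE 0.30), Mmp27 at -0.03 (SE 1.07) and Mmp21 at 1.83 (SE 4.04).

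Other genes of matrix proteolysis were read as lists. Of 10 plasminogen system genes, 1 rose and 1 fell in CTX against UT, 9 had negative values and the median log2 fold change was -0.50. Over all genes 1.29% were called, 55.8% had negative values and the median was -0.03. The median SE was 0.42 in this list and 0.21 over all genes. Serpine2, which encodes protease nexin 1, an inhibitor of thrombin and plasminogen activators made by granulosa cells, rose, with 0.35 in the authors' deposited table (SE 0.09, adjusted p = 0.0147). Serping1, the C1 inhibitor gene, fell, with -0.57 in the authors' deposited table (SE 0.15, adjusted p = 0.0208). Neither passed in CAU against CTX or in CAU against UT. In CAU against CTX the authors' deposited table has Serpine2 at -0.19 (SE 0.11) and Serping1 at 0.16 (SE 0.09).

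None of the other lists had a called gene in any comparison by DESeq2. These were 14 genes of MMP activation and inhibition outside the TIMPs (median 0.09 in CTX against UT) and 17 proteoglycan and microfibril substrates (median 0.10). In the same comparison 5 crosslinking enzymes had a median of -0.03 and 11 ADAM genes 0.05. The median was -0.49 for 6 ADAMTS-like genes (median SE 0.34) and -0.32 for 15 genes of ovulation and cumulus matrix (median SE 0.59). Vcan, which encodes versican, the substrate of Adamts1, was at 0.39 in the authors' deposited table in CTX against UT (SE 0.12, adjusted p = 0.0626) and is named here after its value was seen.

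Markers of several cell types lay on one side of 0 in the comparison in which Mmp16 rose. In CTX against UT all 12 macrophage markers were lower, 6 of them called, with a median of -0.96, and all 9 surface epithelium markers were lower, 2 of them called, with a median of -1.51. All 8 granulosa markers were higher, 1 of them called, with a median of 0.48. Of 10 neutrophil markers 9 were lower (median -1.44, median SE 1.58), and all 9 oviduct epithelium markers were lower (median -1.14, median SE 1.26), with none called in either list. The 8 stroma markers had a median of 0.06, the 6 endothelial markers -0.14, the 6 smooth muscle markers -0.02 and the 6 luteal markers -0.27, and none of these was called. The part of these cell types in the values of Mmp16, Timp2, Mmp9 and the chromosome 9 cluster was not tested.

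In CAU against CTX 11 of 12 macrophage markers were higher, 2 of them called (median 0.39), and all 9 surface epithelium markers were higher with none called (median 0.78). Of 10 neutrophil markers 9 were higher (median 2.24) and of 9 oviduct epithelium markers all were (median 1.10), with none called. In CAU against UT 11 of 12 macrophage markers were lower with none called (median -0.50), and all 8 granulosa markers were higher with none called (median 0.35). The 6 smooth muscle markers were all higher in CAU against CTX (median 0.19) and in CAU against UT (median 0.15), with none called. Of 6 endothelial markers, all were lower in CAU against CTX (median -0.13) and 5 in CAU against UT (median -0.24), with none called. Mmp12, which macrophages make, was at -0.05, -0.17 and -0.21 in CTX against UT, CAU against CTX and CAU against UT in the authors' deposited table, with SEs of 0.32 to 0.46.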

How the data were processed

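RNA-seq of ovarian tissue covered 9 samples, 3 each of CTX, CAU and UT as the labels' titles give them. Tools named in the submitters' processing notes are DESeq2 1.44.0, RSEM 1.3.1, Bowtie2 and HISAT2, with the build GRCm38.p6, without roles or order. Not given in the sources used here were strand setting, filters and covariates. Per the file headers, the deposited table has for each of 3 comparisons the log2 fold change and DESeq2's p-value and q-value, the last called adjusted p here. Between 215 and 272 genes were blank in a comparison. The log2 fold changes deposited by the authors added up across the 3 comparisons within 0.01 of a constant in 43 of 43 members with all values.

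The implied SE is the size of the log2 fold change divided by the size of z for its 2-sided p-value, on the assumption of a Wald test. The calculation was run on data simulated under that same assumption, which checks the arithmetic but cannot check the assumption. Threshold, zero point, SE limit, z scaling and fold size were varied. Members follow a symbol rule. Members, lists, tests and the rule for naming were chosen with earlier results of these data known. Named genes are the called members, the TIMPs, the most precise members of each role, those with the largest differences at an SE of at most 1 and up to 2 called genes per list. Other members are named to account for all 44. The cluster and motif descriptions, and Vcan, were added after values were seen. Gene positions and promoters are from RefSeq and exon overlaps from GENCODE M21, both on GRCm38. The software was Python 3.11.15 with pandas 2.3.3, numpy 2.4.6, matplotlib 3.10.9 and scipy 1.17.1.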

Additional observations from a re-analysis of the deposited data

How the results depend on the processing

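The number of members called in CTX against UT depended on the setting. It was 1 (Mmp16) at the main setting, where 1.29% of all genes were called. It was 2 (Mmp16 and Timp2) at an adjusted p under 0.10, beside 2.15% of all genes. Among genes with an implied SE of at most 1 it was also 2, the same genes, beside 1.75% of such genes. It was 0 at an adjusted p under 0.01 (0.607% of all genes) and with a 2-fold difference required (0.389%). With all values centred on the median of all genes it was 1, Mmp16, beside 1.51% of all genes. With z scaled by its robust spread it was the same, beside 1.16%. The adjusted p of Mmp16 ranged from 0.0147 to 0.0328 over these fits. In CAU against UT the count was 0, beside 0.0518% of all genes. It was 1 (Timp2, log2 fold change -0.28) with z scaled by its robust spread of 0.712, which called 1.3% of all genes. The count in CAU against CTX was 0 at all 6 alternatives, which called 0.223% to 1.28% of all genes. The median log2 fold change of the members stayed below 0 under its 3 alternatives in each comparison, at -0.05 to -0.04 in CTX against UT and -0.10 to -0.08 in CAU against UT. In CAU against CTX it was -0.02 in the main setting, -0.06 with an SE of at most 1, -0.09 with an SE of at most 0.5 and -0.02 after centring. Centred in that way, Adamts3 in CTX against UT changed sign to 0.0045. Of 432 values of 38 named members under the alternatives, 428 kept their direction and side of the threshold, and 3, all of Timp2, passed where they had not before. At the 0.10 threshold the deposited values stayed as they were and only the limit moved. Most values began far above the threshold, so this count was largely fixed in advance and is no measure of stability. The 0.01 threshold and the 2-fold requirement, at which Mmp16 was not called, were left out of this count. Only centring could turn a direction, since the other settings leave the fold change as it is. The causes were not tested. Leaving out each replicate was not run, since no value per sample was used. No paired analysis was possible because the table holds comparisons of groups only. Sequencing depth is unknown, so precision rests on the implied SE.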

Other observations

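Some of the SEs worked out from the p-values sat at or close to a common upper limit. Between 912 and 926 genes in each comparison (4.74% to 4.80% of those tested) had an implied SE of at least 4, with a highest value of 4.08. Mmp21 had 4.04 in CTX against UT and in CAU against UT, and Mmp1b had 4.04 in CAU against CTX and in CAU against UT, all 4 with log2 fold changes of 1.83 to 1.86 in the authors' deposited table. A ranking of the members by the size of the fold change alone would place these genes, with Mmp10, Mmp7 and Mmp3, near the top in some comparisons. Timp2, with an SE of 0.06 in CTX against UT, would fall in the middle of the members in that comparison.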
